A study of Rattus norvegicus with 66 samples.

Results

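A set of 9 genes that textbooks use to tell the subfields of the rodent hippocampus apart was followed through RNA-seq of the dorsal hippocampus of Long Evans rat pups on postnatal day (PND) 6. They were taken by name as Prox1, C1ql2, Dsp, Calb1, Zbtb20, Wfs1, Fibcd1, Amigo2 and Dkk3, 9 of the 37777 rows of the count table. Their identifiers in that table are gene27616, gene26697, gene31752, gene12655, gene25027, gene28483, gene7553, gene18239 and gene2991 in the same order. Fibcd1 has 2 rows, both without a count, and the other 8 genes have 1 row each. Levels are CPM, the counts of a gene per 1000000 counts of the pup. CPM is not corrected for transcript length, so levels were not compared between genes.

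The hippocampus is a chain of fields. Granule cells of the dentate gyrus send mossy fibers to the pyramidal cells of CA3, which project on to those of CA1, with the narrow CA2 field between them. In the first week after birth pyramidal cells are already in place, while most granule cells are still being born and the dentate gyrus is still maturing. The 9 genes mark these fields within the hippocampus, and several of them are also active in thalamus, striatum or neocortex.

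The study exposed dams to endocrine active chemicals and sampled their offspring. There were 66 libraries of 64 pups, 41 males and 23 females of 44 litters, in 13 groups, and both libraries of each of the 2 pups sequenced more than once were added up. The tissue was a rectangular piece of dorsal hippocampus that took in some neocortex at its lateral side, so that it holds all fields and neighbouring tissue together. Total counts per library ran from 10644138 to 86206550 with a median of 20740650. The feeding controls (CONF, 4 males and 5 females) came from dams on plain soy-free chow. The injection controls (CONSC, 5 males and 5 females) came from dams given the vehicle under the skin, which is named saline in the labels and DMSO in the methods. Aroclor 1254, a mixture of polychlorinated biphenyls, was eaten by the dam at 0.5 mg/kg (Aro05, 4 males) or 5 mg/kg (Aro5, 6 males and 5 females) from before mating into lactation. Bisphenol A, a plasticizer with estrogenic activity, was likewise given in chow at 0.5 mg/kg (BPA05, 4 males) or 5 mg/kg (BPA5, 7 males and 4 females). Chlorpyrifos, an organophosphate insecticide, was injected under the dam's skin at 1 mg/kg (CPF1, 4 males) or 3 mg/kg (CPF3, 7 males and 4 females), in gestation and again after birth. All dams were of the same outbred strain. The litter was the unit that was treated, so pups of a litter share their exposure.

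Wfs1 and C1ql2 are the 2 genes that passed the test between the sexes in controls, so the stretch of DNA just before their start is shown. Of the 9 genes 5 have an entry in the RefSeq table of upstream sequences, made on the build GRCr8 and not on the build Rnor_6.0 of the counts. Each sequence below holds the 250 bases before the start of the gene, on the + strand, for Wfs1 chr14:78034955-78035204 and for C1ql2 chr13:34023652-34023901. Capitals mark matches, on either strand, to the GC box GGGCGG, the E-box CANNTG, the TATA box TATAAA and the nuclear receptor core motif AGGTCA.
Wfs1: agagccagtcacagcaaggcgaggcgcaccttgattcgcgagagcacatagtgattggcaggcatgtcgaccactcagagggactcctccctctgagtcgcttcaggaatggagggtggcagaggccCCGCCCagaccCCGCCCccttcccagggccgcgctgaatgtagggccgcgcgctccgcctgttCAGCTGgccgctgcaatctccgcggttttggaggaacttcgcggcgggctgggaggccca
C1ql2: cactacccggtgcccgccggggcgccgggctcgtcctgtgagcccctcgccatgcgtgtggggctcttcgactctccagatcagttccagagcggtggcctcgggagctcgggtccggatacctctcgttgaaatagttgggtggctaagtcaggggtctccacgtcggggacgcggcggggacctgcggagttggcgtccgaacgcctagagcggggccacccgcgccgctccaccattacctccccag
Upstream of Wfs1 there were 2 GC boxes, both on the reverse strand as CCGCCC and starting 123 and 112 bases before the gene, and 1 E-box starting 60 bases before it. C1ql2 had none of the 4 motifs in this window. Of 33465 rat upstream sequences of the same length 30.5% held the GC box, 65.5% the E-box, 12.9% the TATA box and 14.1% AGGTCA. The GC content was 66% upstream of Wfs1 and 68.8% upstream of C1ql2, against a median of 51.2% over all upstream sequences.

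The dentate markers differed widely in spread. Prox1, a homeobox transcription factor that sets and keeps granule cell identity, ranged from 22.9 to 182 CPM over the 64 pups with a median of 104 CPM. Male Aro5 was the most uneven group, with 22.9, 43.4 and 58.3 CPM in 3 pups and 117, 124 and 146 CPM in the other 3, and a CPF3 female had 32.7 CPM. Group means of Prox1 ran from 80.8 ± 34.4 CPM (SD, n = 4) in female CPF3 to 125 ± 27.1 CPM (SD, n = 4) in male Aro05. The values of these groups overlapped.

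C1ql2, a secreted C1q-like protein of mossy fiber synapses, was sparse, with 0 to 475 counts per pup and a median of 0.895 CPM. In female CONF the pups had 0.712, 1.5, 1.58, 1.96 and 2.16 CPM. In female CONSC they had 0.534, 1.57, 2.07, 2.07 and 3.25 CPM. Male controls were lower, with 4 of the 9 below every control female. Male CONF had 0.234, 0.357, 0.884 and 0.975 CPM. Male CONSC had 0.277, 0.417, 0.557, 0.728 and 1.16 CPM. Among low-dose males, no pup passed 1.70 CPM. Male Aro05 had 0.228, 0.357, 1.69 and 1.70 CPM, and male BPA05 had 0.0939, 0.233, 0.686 and 0.739 CPM. Male CPF1 had 0.0806, 0.780, 1.27 and 1.37 CPM. High-dose males lay in the same range except for 2 pups. Male Aro5 had a lowest, median and highest value of 0, 0.623 and 0.922 CPM. Male BPA5 had 0.162, 0.745 and 7.17 CPM and male CPF3 0, 0.626 and 3.61 CPM. The count of 0 in a male Aro5 and a male CPF3 pup limits their level only to below the CPM of 3 counts, which lay between 0.0348 and 0.282 CPM over all pups and covers counting error only. Among high-dose females, the BPA5 pup with 8.39 CPM was the highest of all pups. Female Aro5 had 1.58, 1.59, 1.87, 2.53 and 2.92 CPM. Female BPA5 had 1.04, 2.07, 2.24 and 8.39 CPM, and female CPF3 had 0.534, 1.26, 1.60 and 5.51 CPM.

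Dsp, the desmosomal plaque protein desmoplakin, and Calb1, the calcium buffer calbindin, are found in granule cells, Calb1 in part of the CA1 pyramidal cells as well. Dsp ranged from 1.51 to 4.42 CPM on 21 to 174 counts per pup, with group means from 2.27 ± 0.387 CPM (SD, n = 4) in male Aro05 to 3.30 ± 0.843 CPM (SD, n = 4) in male CONF. Calb1 ranged from 25.3 to 95.4 CPM. Its 4 highest group means were those of male BPA05 (59.0 ± 12.0 CPM, SD, n = 4), male CONF (55.9 ± 6.09, n = 4), male CONSC (54.6 ± 18, n = 5) and male Aro5 (51.9 ± 17.6, n = 6), and its lowest was that of female CPF3 (31.9 ± 4.96, n = 4). The single highest pup, at 95.4 CPM, was a CONSC female, while the other 4 pups of her group had 26.4 to 38.1 CPM.

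Zbtb20, a zinc finger repressor that directs CA1 and dentate fates, had 9 to 329 counts per pup and 0.835 to 8.07 CPM. Its group means ran from 1.80 ± 0.519 CPM (SD, n = 4) in male CPF1 to 4.69 ± 1.68 CPM (SD, n = 5) in female CONF. Fibcd1, a membrane receptor for acetylated sugars that marks CA1 in adults, had no count in any pup. At these depths that allows up to 0.0348 CPM in the deepest and 0.282 CPM in the shallowest pup, and the cause was not tested.

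Wfs1, the endoplasmic reticulum protein wolframin and a marker of CA1, stood in 2 tiers that followed sex. Control females had 11.1, 11.8, 13.3, 14.8 and 17.7 CPM in CONF and 10.2, 13.4, 13.5, 13.8 and 16.0 CPM in CONSC. Control males had 5.57, 7.42, 8.06 and 8.77 CPM in CONF and 5.98, 8.40, 8.82, 8.94 and 9.55 CPM in CONSC. No control male thus reached the lowest control female. High-dose females had 12.7, 13.9, 15.0, 15.2 and 18.5 CPM in Aro5, 12.7, 13.8, 16.2 and 20.0 CPM in BPA5, and 10.0, 12.9, 13.8 and 14.7 CPM in CPF3. High-dose males had a lowest, median and highest value of 4.28, 8.43 and 11.4 CPM in Aro5, 3.97, 8.10 and 12.6 CPM in BPA5, and 5.91, 8.16 and 10.4 CPM in CPF3. Low-dose males lay in the same range, with 5.72, 6.40, 7.09 and 11.4 CPM in Aro05, 3.38, 4.31, 7.39 and 8.78 CPM in BPA05, and 4.35, 8.63, 9.00 and 10.5 CPM in CPF1. All 5 female group means, 12.8 to 15.7 CPM, were above all 8 male ones, 5.96 to 8.34 CPM. Female CPF3 and male CONSC, neighbours in that order, did not overlap, and the other 11 neighbouring pairs of groups did. For each of the other 7 genes with counts all 12 neighbouring pairs overlapped. How many of all genes show such a gap was not counted, so it cannot be read as particular to Wfs1.

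Amigo2, an adhesion molecule of CA2 and CA3 pyramidal cells, was found at 15.8 to 32.8 CPM with group means from 21.1 ± 1.05 CPM (SD, n = 4) in female BPA5 to 27.1 ± 3.75 CPM (SD, n = 5) in male CONSC. Dkk3, a secreted dickkopf family protein of CA3 pyramidal cells, ranged from 74.9 to 169 CPM, with group means from 120 ± 14.6 CPM (SD, n = 6) in male Aro5 to 143 ± 11.0 CPM (SD, n = 5) in female CONF. The lowest Dkk3 value came from the CONSC female with the highest Calb1 value.

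**Figure D1:**
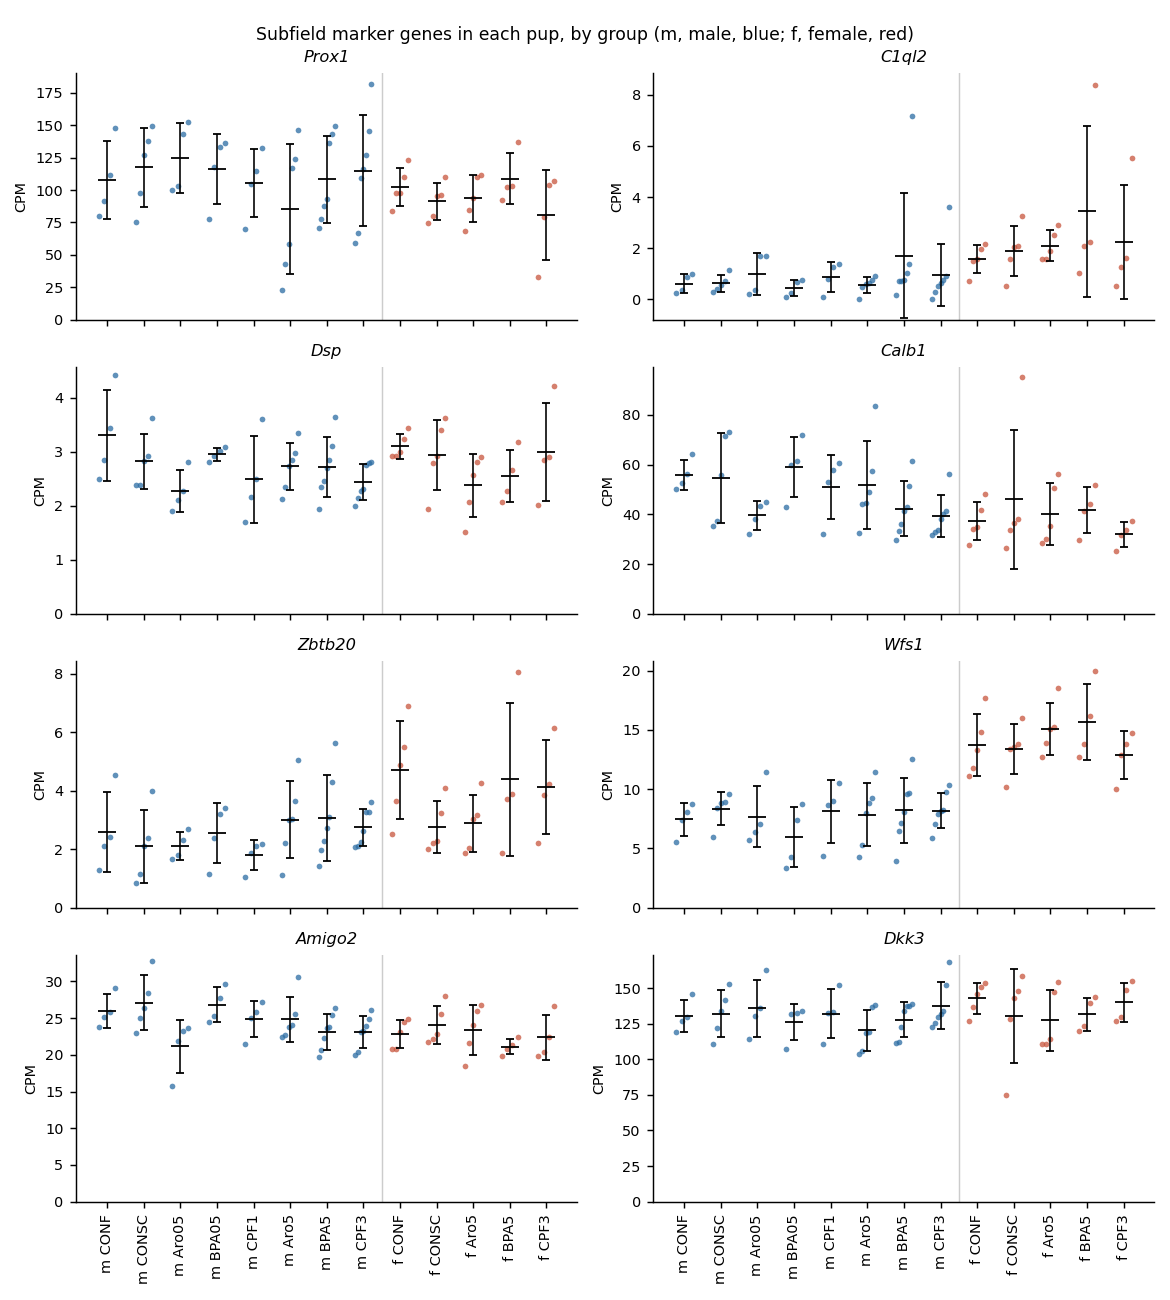
Level of 8 subfield markers in CPM (y axis, linear) in each of the 64 pups (points), by group (x axis), with group mean and SD as bars; Fibcd1 had no counts and is left out. Wfs1 of the females lies between 10.0 and 20.0 CPM and that of the males between 3.38 and 12.6 CPM. For each other gene shown, groups next to each other in order of their mean overlap. Groups farther apart may not, as with C1ql2 in female and male Aro5.

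The first question was whether exposure changed these markers. None of them passed the threshold used, an adjusted p (Benjamini-Hochberg over all genes tested) under 0.05 in edgeR's quasi-likelihood test. Of the 8 genes tested 0 passed in males against the 9 control males, where 0.195% of all genes passed for Aro5, 0.189% for BPA5, 0.159% for CPF3, 0.124% for Aro05, 0.0434% for BPA05 and 0% for CPF1. In females against the 10 control females 0 of 8 passed as well, with 0% of all genes passing for Aro5, BPA5 and CPF3 alike. With so few calls over all genes, a count of 0 among 8 is near the background. The background itself depended on the pups used, since for Aro5 males 4.96% of all genes passed within the time window in which most pups were taken (10.30 to 13.20) and 0% with the form of the library names as a covariate, and 0 of the 8 passed in both. That form went largely with high-dose treatment, since 9 male control libraries had 1 form and 1 had the other, as did the 20 high-dose male ones. DESeq2 called 0 of the 8 in each of these 9 comparisons too. At an unadjusted p under 0.05 there were 3 of the 8 for BPA5 males, 3 for CPF3 males, 2 for Aro05 males and 0 for the other 6 comparisons, beside 9.1%, 12.6% and 18.5% of all genes in those 3 groups.

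Calb1 and Amigo2 accounted for 6 of those 8 values, each in the same 3 groups. In CPF3 males Calb1 was at 31.8 to 56.4 CPM with a median of 38.1 CPM, and in control males at 35.5 to 73.0 CPM with a median of 55.7 CPM, a log2 fold change of -0.48 ± 0.18 (SE; edgeR adjusted p = 0.306). Of the 7 CPF3 males 6 were below 7 of the 9 control males, but the ranges overlapped. In Aro05 males the change of Calb1 was -0.41 ± 0.18 (edgeR adjusted p = 0.231) and in BPA5 males -0.37 ± 0.18 (edgeR adjusted p = 0.536). For Amigo2 the changes were -0.19 ± 0.08 in CPF3 males (edgeR adjusted p = 0.349), -0.26 ± 0.10 in Aro05 males (adjusted p = 0.193) and -0.19 ± 0.08 in BPA5 males (adjusted p = 0.504). These comparisons share their 9 control males, so they are not separate observations of a lower level.

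The other 2 values were those of Dsp in CPF3 males, -0.29 ± 0.14 (edgeR adjusted p = 0.396), and of C1ql2 in BPA5 males, 1.62 ± 0.63 (edgeR adjusted p = 0.493). The value of C1ql2 rested on the pup with 7.17 CPM, and without it the change was 0.52 (adjusted p = 0.840). In BPA5 females C1ql2 had a change of 0.96 ± 0.47 (edgeR adjusted p = 0.925), which went to 0.08 without the pup with 8.39 CPM. In CPF3 males it had a change of 0.71 ± 0.68 (edgeR adjusted p = 0.670), which turned to -0.16 without the pup with 3.61 CPM.

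Wfs1, Prox1, Zbtb20 and Dkk3 had no unadjusted p under 0.05. Wfs1 lay between -0.36 ± 0.24 (BPA05 males) and 0.22 ± 0.14 (BPA5 females) over the 9 comparisons. Prox1 lay between -0.39 ± 0.29 (Aro5 males) and 0.21 ± 0.19 (Aro05 males). Zbtb20 lay between -0.42 ± 0.36 (CPF1 males) and 0.36 ± 0.31 (Aro5 males), and Dkk3 between -0.11 ± 0.09 (Aro5 males) and 0.12 ± 0.10 (Aro05 males).

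Injection and feeding controls were compared to see whether the route of treatment mattered. No gene of the 8 passed in edgeR in males, where 0.0123% of all genes did, or in females, where 0% did, and DESeq2 called none of the 8. At an unadjusted p under 0.05 there was 0 of 8 in males and 1 in females, Zbtb20, with 2.76 ± 0.882 CPM (SD, n = 5) in CONSC and 4.69 ± 1.68 CPM (n = 5) in CONF, a log2 change of -0.80 ± 0.34 (edgeR adjusted p = 0.830).

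The second question was how the sexes differed. In controls Wfs1 and C1ql2 were higher in females. Wfs1 was at 13.6 ± 2.24 CPM (SD, n = 10) in females and at 7.95 ± 1.37 CPM (n = 9) in males, a log2 fold change of 0.82 ± 0.11 (edgeR adjusted p = 1.21e-05). C1ql2 was at 1.74 ± 0.769 CPM in females and at 0.620 ± 0.331 CPM in males, a log2 fold change of 1.60 ± 0.34 (edgeR adjusted p = 0.00138). These 2 of 8 genes compare with 29.3% of all 16324 genes called between the sexes of the controls, 17.2% higher in females, so the number called is not particular to the subfield markers. The other 6 genes did not pass. Zbtb20 had a change of 0.61 ± 0.26 (adjusted p = 0.0907), which passed without either of 2 control males (0.84 without CONF pup N2-2y, adjusted p = 0.0259, and 0.80 without CONSC pup 10-2y, adjusted p = 0.0243). Amigo2 had a change of -0.14 ± 0.07 (adjusted p = 0.141), Calb1 of -0.37 ± 0.19 (adjusted p = 0.159), Prox1 of -0.18 ± 0.13, Dkk3 of 0.10 ± 0.11 and Dsp of 0.03 ± 0.13. In tissue pieces such as these, a lower number of cells of a type and less RNA per cell cannot be told apart. Whether libraries of the sexes were prepared and sequenced together is not given in the sources used here. The paper states that the RNA-seq assay of female samples was repeated and gives a higher mean RNA integrity for females than for males. Over all libraries the median total was 24460035 counts in females and 19308198 in males. With the library total of a pup Wfs1 had a Pearson's r of 0.29 in males and 0.22 in females, and C1ql2 of 0.24 and 0.22. The part of any of these in the sex differences was not tested. Control libraries whose names share 1 of the 2 forms that the labels use gave 0.95 ± 0.17 for Wfs1 and 1.54 ± 0.40 for C1ql2. These were 14 libraries, 9 male and 5 female (edgeR adjusted p = 0.00220 and 0.0209). No such fit was possible in high-dose pups, where the 20 male libraries had the other form and no form was assigned to the female libraries. Form and sex therefore could not be separated there.

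The sex difference of Wfs1 passed in all 3 high-dose treatments. In Aro5 pups it was 0.95 ± 0.19 (edgeR adjusted p = 3.94e-04), with all 5 females above all 6 males. With the thalamus, striatum and neocortex lists as covariates it was 0.60 (edgeR adjusted p = 0.0551). In BPA5 pups it was 0.95 ± 0.20 (edgeR adjusted p = 0.00157), again with no overlap, though the lowest female at 12.7 CPM and the highest male at 12.6 CPM all but met. In CPF3 pups it was 0.69 ± 0.20 (edgeR adjusted p = 0.0178), with 3 of the 4 females above every male. The CPF3 value did not pass without the females 43-3x (0.69, adjusted p = 0.0603) or 45-6x (0.61, adjusted p = 0.0694) or the male 38-1y (0.62, adjusted p = 0.0506), or within the time window (0.69, adjusted p = 0.0816). Sexes did not overlap in 6.04% of the 14702 genes with a mean of at least 1 CPM in controls, 13.7% in Aro5, 8.45% in BPA5 and 6.18% in CPF3 pups, whereas of the 8 subfield markers it was Wfs1 alone in controls and BPA5 pups, Wfs1 and C1ql2 in Aro5 pups, and 0 in CPF3 pups. Over all pups 19 of 23 females were above every male in Wfs1 and 36 of 41 males below every female.

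For C1ql2 the sex difference was 1.84 ± 0.65 in Aro5 pups (edgeR adjusted p = 0.0276), 0.92 ± 0.61 in BPA5 pups (adjusted p = 0.413) and 1.43 ± 0.63 in CPF3 pups (adjusted p = 0.122). The Aro5 value did not pass without the females 115-13x (1.70, adjusted p = 0.0631) or 117-6x (1.77, adjusted p = 0.0522) or the male 120-2y (1.65, adjusted p = 0.0682), within the time window (1.73, adjusted p = 0.0857) or with the thalamus, striatum and neocortex lists as covariates (0.49, adjusted p = 0.678). The other 2 values moved with 1 pup. Without the male with 7.17 CPM the BPA5 value was 2.03 (edgeR adjusted p = 0.0227), and without the female with 8.39 CPM it was 0.04. Without the male with 3.61 CPM the CPF3 value was 2.29 (edgeR adjusted p = 0.0120), and with litter as a block in limma-voom it was 2.32 (adjusted p = 0.0305). Averaged over the 3 high-dose treatments, Wfs1 differed by 0.87 ± 0.11 (edgeR adjusted p = 4.35e-08) and C1ql2 by 1.40 ± 0.36 (edgeR adjusted p = 0.00161). Within the time window the average for C1ql2 was 1.04 (edgeR adjusted p = 0.0525). Called were 2 of the 8 in Aro5 pups against 30.3% of all genes (13.8% higher in females), 1 in BPA5 pups against 5.55% (3.23% higher in females), 1 in CPF3 pups against 12.3% (5.8% higher in females), and 2 on average against 43% (19.5% higher in females).

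Treatment was not found to change the sex difference. The interaction of sex with treatment called 0 of the 8 genes in edgeR for Aro5, BPA5 and CPF3, against 0.0984%, 0.0405% and 0.0463% of all genes. At an unadjusted p under 0.05 it was 0 of 8 in each, and DESeq2 called 0 as well. For Wfs1 the log2 interaction was 0.15 ± 0.25 for Aro5, 0.15 ± 0.25 for BPA5 and -0.11 ± 0.25 for CPF3. For C1ql2 it was 0.26 ± 0.88, -0.66 ± 0.84 and -0.15 ± 0.85, with an SE above the value in each.

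**Figure D2:**
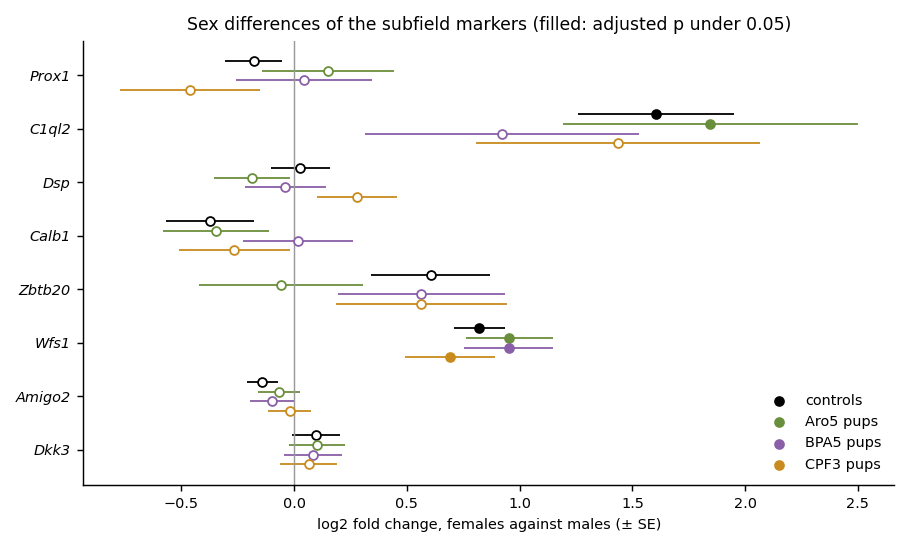
Fitted log2 fold change of females against males (x axis, bars are SE) for 8 subfield markers (y axis) in controls and in Aro5, BPA5 and CPF3 pups; filled points have an adjusted p under 0.05. Wfs1 lies between 0.69 and 0.95 in all 4, C1ql2 between 0.92 and 1.84 with wide errors, and the points of the other genes are open.

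Sisters and brothers were also compared within litters. In 7 of the 12 control litters a female and a male were both sequenced, and they share dam, chow or injection and day of birth. The form of the library names differed between sister and brother in litters N3, 6 and 8. In litters N2 and N4 1 of the pups had libraries of both forms. The part of this in the differences within litters was not tested. Wfs1 was higher in the female of all 7 litters, with pairs from 10.2 against 8.40 CPM to 17.7 against 7.42 CPM. Its mean difference on the scale log2(CPM + 0.5) was 0.72 ± 0.31 (SD, n = 7; exact sign-flip permutation test, two-sided, p = 0.0156). C1ql2 was higher in the female of all 7 as well, with a mean of 1.86 against 0.707 CPM and a difference of 0.93 ± 0.61 (exact permutation p = 0.0156, n = 7). The smallest p that 7 litters allow is 0.0156.

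Calb1 and Amigo2 went the other way within litters. Calb1 was lower in the female of all 7 litters, from 33.8 against 71.6 CPM, the largest fold, to 48.1 against 56.0 CPM, the smallest, a mean difference of -0.64 ± 0.29 (exact permutation p = 0.0156, n = 7). Amigo2 was lower in the female of all 7 litters, at a mean of 22.5 against 26.5 CPM, a difference of -0.23 ± 0.17 (exact permutation p = 0.0156, n = 7). A difference of 1 sign in all 7 litters was found in 19.8% of the 14702 genes and in 4 of the 8 subfield markers. For Calb1 the comparison of all control pups turned on 1 animal. The CONSC female with 95.4 CPM has no sequenced brother, and without her the fitted sex difference of Calb1 in controls was -0.60 (edgeR adjusted p = 0.00161). With litter as a fixed term over the 7 litters it was -0.61 (edgeR adjusted p = 5.53e-04). Zbtb20 was higher in the female of 5 litters (exact permutation p = 0.0938, n = 7), Dkk3 of 4 (p = 0.219), Prox1 of 3 (p = 0.594) and Dsp of 2 (p = 0.406). These are 8 tests whose p-values were not adjusted.

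Lists of other genes known from each field and from neighbouring tissue were set beside the markers. Of 54 such genes tested in controls 7 passed between the sexes in edgeR, 6 higher in females and 1 lower, beside the 29.3% of all genes. Of the CA1 list, without Wfs1, 1 of 4 tested genes passed, Pou3f1, a POU transcription factor, at 0.78 ± 0.20. Of the CA3 list 3 of 7 passed, Cdh24, a cadherin, at 0.59 ± 0.07 (64.4 ± 7.39 CPM in females and 44.0 ± 3.51 CPM in males), Bok at 0.34 ± 0.08 and Grik4, a kainate receptor subunit, at 0.32 ± 0.10. Of the dentate list 1 of 10 passed, Plk5, at 0.80 ± 0.09 (10.4 ± 1.16 CPM and 6.18 ± 0.951 CPM). Six3, of 8 striatal genes, was higher at 0.98 ± 0.28, and Etv1, of 8 neocortical genes, lower at -0.23 ± 0.08. None of 6 CA2, 6 thalamic and 5 choroid plexus genes passed in edgeR. The median change in controls was 0.24 for the CA1, 0.21 for the CA3 and -0.0072 for the dentate list, against -0.019 over all genes. Averaged over the high-dose treatments it was -0.12, 0.13 and 0.043, against -0.023 over all genes. There 12 of 55 list genes passed in edgeR, beside 43% of all genes. Of the CA1 list this was Mpped1 alone, lower in females, while of 8 CA3 genes 4 were higher and 1 was lower. The CA1 median was negative in Aro5, BPA5 and CPF3 pups alike (-0.11, -0.051 and -0.19).

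In the treatment comparisons, in CONSC against CONF and in the interactions, edgeR called 0 genes of these lists. At an unadjusted p under 0.05 there were 25 in Aro05 males, beside 18.5% of all genes, 12 in CPF3 males (12.6%), 5 in Aro5 males (11.8%), 4 each in BPA5 (9.1%) and BPA05 males (8.58%) and 0 in CPF1 males (2%). In females there were 1 for Aro5 (3.23%), 2 for BPA5 (4.08%) and 3 for CPF3 (8.79%). There were 0 in male (1.1%) and 1 in female controls (4.7%) by route, and 3, 0 and 5 in the interactions with Aro5, BPA5 and CPF3 (8.92%, 2.79% and 5.6%). DESeq2 called Rorb in Aro5 males and Kl and Tle4 in Aro05 males.

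Summed levels of the regional lists varied to different degrees over the pups. The thalamus list, led by Tcf7l2, ran from 111 to 1212 CPM over pups with a median of 696 CPM. The striatum list, led by Ppp1r1b, ran from 78.4 to 1141 CPM with a median of 233 CPM, and the choroid plexus list, mostly Ttr, from 758 to 4522 CPM. Dentate genes summed to 248 to 404 CPM, CA3 genes to 206 to 345 CPM, CA2 genes to 216 to 500 CPM and neocortical genes to 503 to 800 CPM, while CA1 genes ran from 120 to 1034 CPM. The tissue is labelled hippocampus, and in each of the 4 hippocampal lists most genes had counts, but Tdo2 of the dentate list, Spink8 and Lefty1 of the CA1 list and Iyd of the CA3 list were under 1 CPM in every pup, as was Otx2 of choroid plexus. In controls the ranges of the sexes overlapped for all 8 lists. The thalamus list lay between 402 and 996 CPM in females and between 421 and 1180 CPM in males, and the striatum list between 157 and 1141 CPM and between 106 and 545 CPM.

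The third question was whether markers of the same field went up and down together from pup to pup. For 8 genes there are 28 pairs, each tested by Pearson's r of log2(CPM + 0.5) over the 64 pups with 100000 permutations and Benjamini-Hochberg adjustment over the 28, and 10 passed, 4 positive and 6 negative. By Spearman's rho 10 passed too. The share of pairs that pass among all genes was not computed. These counts therefore cannot be read as particular to the subfield markers. The sexes stand apart in Wfs1 and differ in the mean of C1ql2. For this reason r was also taken after subtraction of the mean of each of the 13 groups. With permutation within groups 7 pairs passed, 3 positive and 4 negative. Of these, C1ql2 with Zbtb20 and Prox1 with Amigo2 had not passed over all pups. Pups of a litter are not independent, and with the 44 litter means 4 pairs passed.

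The dentate markers were mostly not correlated with each other. Prox1 had an r of 0.05 with C1ql2 over all pups (0.14 with group means subtracted, permutation p = 0.340), -0.24 with Dsp (permutation p = 0.0520), -0.19 with Calb1 (permutation p = 0.140) and 0.09 with Zbtb20 (permutation p = 0.480), none of which passed. Calb1 and Dsp did, at an r of 0.36 and a rho of 0.38 (permutation p = 0.00370, adjusted p = 0.0170), 0.39 with group means subtracted (adjusted p = 0.0260) and 0.33 without the 2 pups farthest from the median of Calb1 (adjusted p = 0.0400). They passed in males at 0.46 (adjusted p = 0.0140) but not in females (0.33, adjusted p = 0.250), in controls (0.35, adjusted p = 0.420), over litter means (0.33, adjusted p = 0.120) or with TMM library sizes (0.28, adjusted p = 0.0690). C1ql2 and Zbtb20 did not pass over all pups (permutation p = 0.880), and passed after subtraction of group means, at an r of -0.37 (permutation p = 0.00660, adjusted p = 0.0260).

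C1ql2 and Wfs1, the genes that were higher in females, also went together within each sex. They were taken as markers of the dentate gyrus and of CA1, but neither went with the list of its field. With group means subtracted, r was 0.0027 for C1ql2 with the dentate list and -0.30 for Wfs1 with the CA1 list. The pair is therefore not read as a relation of these fields. The r of C1ql2 and Wfs1 was 0.58 in the 41 males (rho 0.53, permutation p = 1.7e-04, adjusted p = 0.00140) and 0.63 in the 23 females (rho 0.65, permutation p = 0.00140, adjusted p = 0.0130). With group means subtracted it was 0.58 (permutation p = 1e-05, the smallest these permutations give).

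The CA3 marker Dkk3 ran against Calb1 and Amigo2. Calb1 and Dkk3 had an r of -0.64 and a rho of -0.57 (permutation p = 1e-05, adjusted p = 7e-05), -0.56 in males and -0.77 in females, and -0.55 without the 2 pups farthest from the median of Calb1. Amigo2, a gene of CA2 and CA3, had an r of -0.57 with Dkk3 and a rho of -0.60 (permutation p = 1e-05, adjusted p = 7e-05). The r was -0.55 in males, -0.64 in females and -0.53 without the 2 farthest pups. Calb1 and Amigo2 went together at an r of 0.61 and a rho of 0.60 (permutation p = 1e-05, adjusted p = 7e-05), 0.66 in males and 0.43 in females (adjusted p = 0.0940 there), and 0.57 without the 2 farthest pups. After subtraction of group means these 3 values were -0.68, -0.64 and 0.51, each past the threshold.

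The remaining pairs were weaker. Calb1 and Zbtb20 had an r of -0.39 (rho -0.36, permutation p = 0.00170, adjusted p = 0.00940), Zbtb20 and Amigo2 -0.33 (rho -0.32, permutation p = 0.00690, adjusted p = 0.0220) and Dsp and Amigo2 0.32 (rho 0.38, permutation p = 0.0100, adjusted p = 0.0280), and none of the 3 passed with group means subtracted. Without the 2 farthest pups Calb1 and Zbtb20 still passed (adjusted p = 0.00910), and the other 2 did not (adjusted p = 0.0760 and 0.0630). C1ql2 with Amigo2 and Wfs1 with Amigo2 were also among the 10 pairs that passed over all pups, with the sexes pooled, but did not pass with group means subtracted (adjusted p = 0.340 and 0.180), in males (adjusted p = 0.450 and 0.420) or in females (adjusted p = 0.0860 and 0.0850). Prox1 and Amigo2 did not pass over all pups, and passed with group means subtracted, at -0.39 (permutation p = 0.00330, adjusted p = 0.0180), in females at -0.58 (adjusted p = 0.0130), with TMM library sizes at -0.36 (adjusted p = 0.0190) and within the time window at -0.37 (adjusted p = 0.0460).

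**Figure D3:**
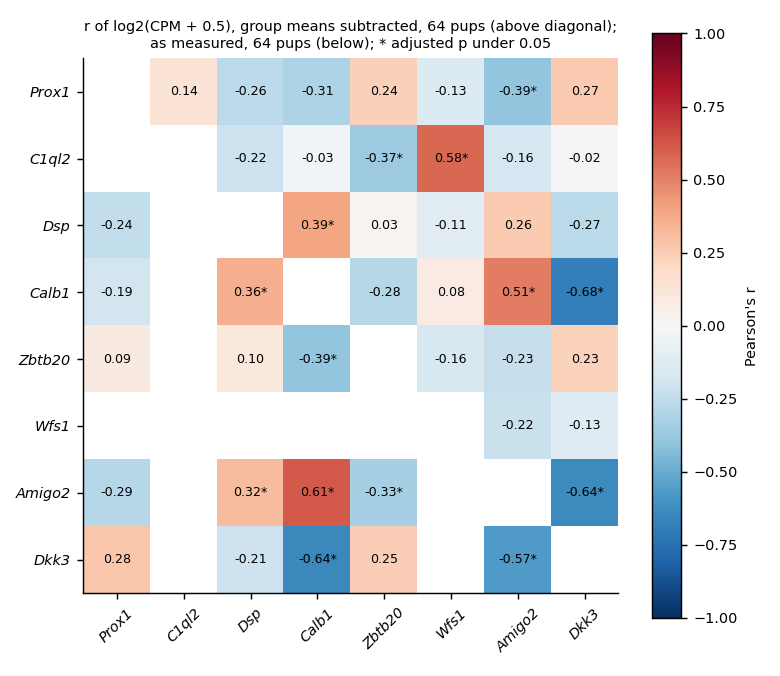
Pearson's r of log2(CPM + 0.5) between 8 subfield markers over 64 pups, from -1 (blue) to 1 (red), with group means subtracted above the diagonal and as measured below it, where pairs with Wfs1 or C1ql2 are left blank because the sexes differ in these genes. Calb1 with Amigo2 and with Dkk3, at 0.51 and -0.68, and C1ql2 with Wfs1, at 0.58, are among the 7 starred pairs above the diagonal.

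**Figure D4:**
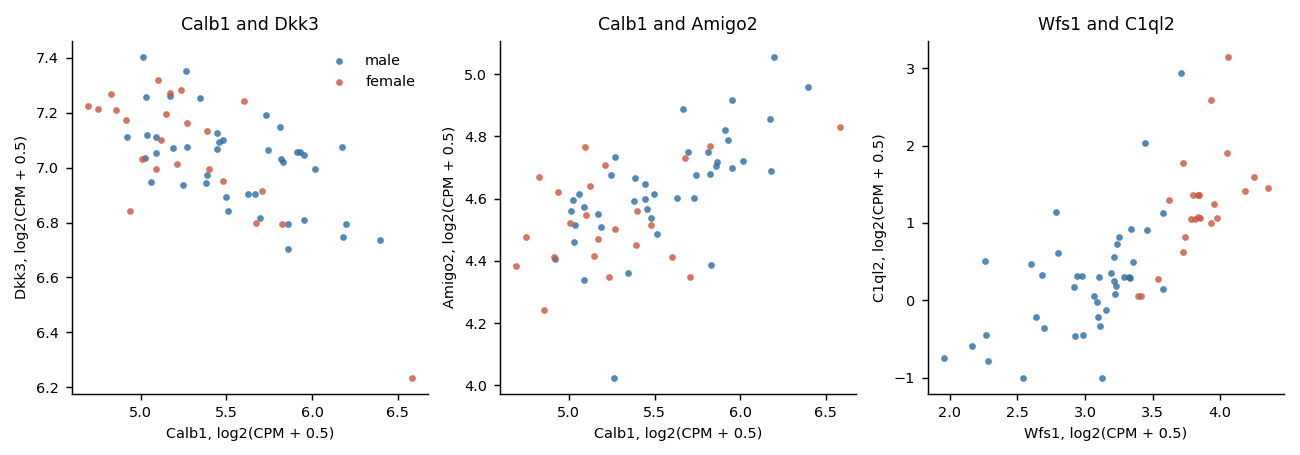
Each of the 64 pups as a point, in log2(CPM + 0.5) on both axes, for Calb1 and Dkk3, Calb1 and Amigo2, and Wfs1 and C1ql2; males are blue and females red. The CONSC female with 95.4 CPM of Calb1 is the lowest point for Dkk3, and in the last panel females lie to the upper right of most males.

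The same values were set against the summed levels of the regional lists, as a description over 64 pups that share tissue piece and library and with group means subtracted. Prox1 had its highest r with the thalamus list, 0.88 (0.90 in males and 0.84 in females), followed by 0.78 with the CA3 list (0.71 and 0.72), and 0.40 with the list of other dentate genes. Calb1 had its highest with the striatum list, 0.82 (0.83 and 0.78), against -0.03 with the dentate list. With that same striatum list Amigo2 had an r of 0.55 and Dkk3 of -0.63. Prox1 is also known from thalamic neurons and Calb1 from striatal projection neurons. The part of these tissues in the levels of the markers was not tested beyond a fit that held the thalamus, striatum and neocortex lists as covariates.

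Among the other genes, Zbtb20 had its highest r with the dentate list, 0.61, and its lowest with the CA2 list, -0.58. Dsp went with the choroid plexus list at 0.56, and Dkk3 with the neocortex list at 0.53 and the CA3 list at 0.39. Amigo2 had an r of -0.56 with the CA3 list and 0.13 with the CA2 list. Wfs1 had 0.41 with the CA2 list, -0.30 with the CA1 list and -0.54 with the neocortex list, and C1ql2 had 0.0027 with the dentate and 0.53 with the CA2 list.

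**Figure D5:**
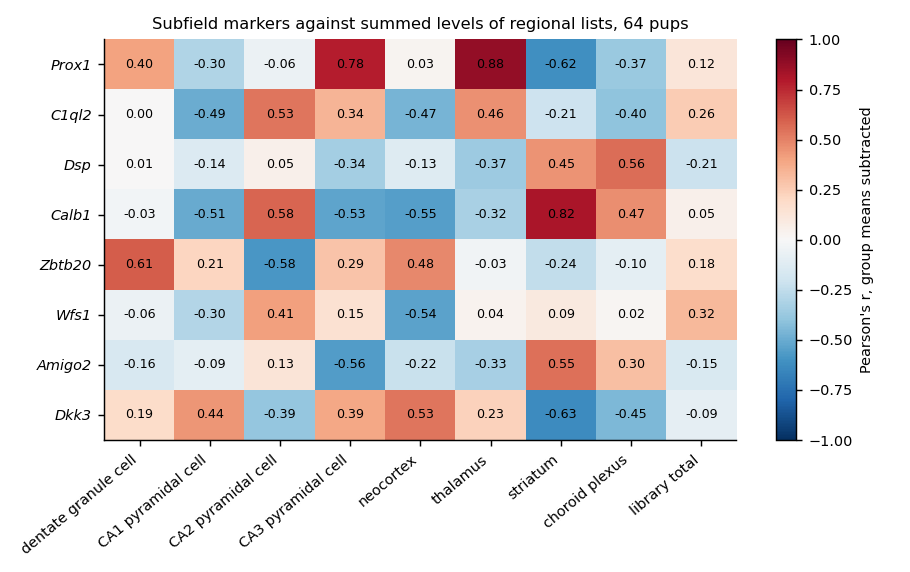
Pearson's r over 64 pups, group means subtracted, of log2(CPM + 0.5) of each of 8 subfield markers (rows) with the log2 summed level of 8 regional gene lists and with the library total (columns). The highest values are those of Prox1 with thalamus at 0.88 and Calb1 with striatum at 0.82.

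The genes whose pattern over the 64 pups was most like that of a marker, out of 14701 compared, were partly of those same tissues. For Prox1 they were Lhx9 (r = 0.90), Tcf7l2 (0.88) and Nhlh2 (0.86), the former 2 being transcription factors of developing thalamus. For Calb1 they were Gad1 (0.90), an enzyme of GABA synthesis, Atp6ap1l (0.89) and Klhl13 (0.88). For Dkk3 they were Slc17a7 (0.75), a vesicular glutamate transporter, Raver2 (0.74) and Nptx1 (0.74), and for Zbtb20 they were Tcf4 (0.80), Shisa6 (0.79) and Lcor (0.79). Dsp came closest to Myo5c, Sostdc1 and Cdh3 (0.65, 0.65 and 0.63), and Amigo2 to Smarca2, Rbm6 and Gucy1a3 (0.76, 0.73 and 0.73).

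For the markers that differed between the sexes the likeness was high over all pups and partly lower within a sex. C1ql2 was closest to Ache (0.89), the acetylcholinesterase gene, with 0.85 in males and 0.82 in females, to Slc12a5 (0.88), the chloride extruder KCC2 of maturing neurons, and to Vgf (0.87), a neuropeptide precursor. Wfs1 was closest to Slc22a17 (0.94), with 0.90 in males and 0.56 in females, to Caskin1 (0.94), with 0.88 and 0.65, and to Plec (0.93), with 0.88 and 0.75.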

How the data were processed

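Poly-A RNA of the dorsal hippocampus was made into libraries with a stranded kit and read by single-end sequencing. The authors aligned reads to Rnor_6.0 with STAR, counted them per gene with featureCounts and deposited raw counts. Versions, the strand option of the counting and what was done with reads of several matches are not given in the sources used here. No column was of no known sample (0).

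Groups, sexes and litters came from the labels. CPM was computed from the deposited counts per pup. Treated pups were compared with CONF and CONSC pups of their sex in edgeR 4.0.16 (R 4.3.3) by quasi-likelihood F tests, after filterByExpr by group and TMM scaling, and p was adjusted by Benjamini-Hochberg over all genes tested. Sex and interaction contrasts used the same test, and the sex contrasts in high-dose pups and the test over litters were added after the data had been seen. The SE is the log2 change divided by the square root of F. The p-values measure the spread between pups, some of which share a litter. Correlations used log2(CPM + 0.5) in Python 3.11.15 with scipy 1.17.1. Alternatives used DESeq2 1.42.0 and limma 3.58.1. The litter numbers in the labels pair sisters and brothers of a dam, and a fit with litter as a replicate block was an alternative. Scripts were tested on simulated data.

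The 9 genes were named with their levels and, in treatment comparisons, with fold changes where p was under 0.05 or as ranges. List genes that passed between the sexes in controls and the 3 genes most like each marker were named as well. The 9 genes and the gene lists were chosen with earlier results of these data known.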

Additional observations from a re-analysis of the deposited data

Results flagged for a closer look

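Among 104 sets of pups (8 genes in 13 groups of 4 to 7 pups), 6 held a pup that stood apart from its group by Dixon's criterion at the 95% level, which chance meets in about 1 of 20 sets. For C1ql2 these were a BPA5 female at 8.386 CPM (next pup 2.244 CPM), a BPA5 male at 7.172 CPM (next 1.401 CPM) and a CPF3 male at 3.61 CPM (next 0.907 CPM). The summed thalamus list stood at 1156 CPM in that BPA5 female, against 549 to 801 CPM in the other 3 of her group, at 1026 CPM in that BPA5 male, the highest of 7, and at 993 CPM in that CPF3 male.

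For Calb1 they were a CONSC female at 95.39 CPM (next 38.14 CPM) and a CPF3 male at 56.36 CPM (next 41.37 CPM). The striatum list stood at 1141 CPM in that female, against 157 to 269 CPM in the others of her group, and at 582 CPM in that male, against 125 to 172 CPM. The sixth was Dkk3 in a BPA05 male, lowest at 107 CPM (next 131.7 CPM), in which the striatum list stood at 778 CPM against 189 to 394 CPM in the other 3. The part of neighbouring tissue in these levels was not tested.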

How the results depend on the processing

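Counts of called genes of the 8 did not change in the 9 treatment comparisons, in CONSC against CONF or in the interactions, at 0 under every alternative and with each pup left out. The sex difference of Wfs1 in controls was called in every alternative. With the thalamus, striatum and neocortex lists as covariates, chosen after seeing the data, the genes called between the sexes went from 2 to 5 in controls (Wfs1, C1ql2, Zbtb20, Calb1 and Amigo2), from 2 to 0 in Aro5 pups (Wfs1 0.60, adjusted p = 0.0551; C1ql2 0.49, adjusted p = 0.678), from 1 to 2 in CPF3 pups and from 2 to 5 in high-dose pups. Over all genes, calls higher and lower in females went from 2807 and 1973 to 2758 and 1965 in controls with these covariates. In Aro5 pups they went from 2392 and 2844 to 519 and 616. In CPF3 pups they went from 1002 and 1127 to 1345 and 1434, and in high-dose pups from 3369 and 4061 to 2660 and 3030. The time window (10.30 to 13.20) leaves out 11 pups. Within it calls among the 8 went from 2 to 1 in Aro5 and in high-dose pups and from 1 to 0 in CPF3 pups. Over all genes the calls were 3139 and 2875 in Aro5, 3575 and 3134 in high-dose and 451 and 230 in CPF3 pups. In limma-voom with the litters as replicate block, calls among the 8 were 2 in controls and went from 1 to 2 in CPF3 pups. Over all genes they were 2496 and 1571 in controls and 1104 and 1332 in CPF3 pups. A fixed litter block over the control litters with both sexes called 3 of the 8, beside 2150 and 994 over all genes. Calb1 was added there at -0.61 (edgeR adjusted p = 5.53e-04). The block changed no other call. With 1 pup left out the counts ranged from 2 to 3 in controls, 1 to 2 in Aro5 pups, 1 to 2 in BPA5 pups and 0 to 2 in CPF3 pups, and the pups are named with the results. The cause was not tested. Correlated pairs went from 10 to 6 in males, 6 in females, 5 and 3 in male libraries of either name form, 4 over litter means, 4 in controls and 5 within the time window, each with fewer values. On the same 64 pups 7 pairs passed with TMM library sizes, among them Prox1 with Amigo2, which is not one of the 10. Of 6176 fitted changes under an alternative 237 changed sign, 181 of them with 1 pup left out, and none was called in either fit.

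C1ql2, Dsp and Zbtb20 are limited by depth, with as few as 0, 21 and 9 counts per pup.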
